A study of Mus musculus with 8 samples.

Results

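The genes described here encode ion channels, ligand-gated and G-protein-coupled neurotransmitter receptors, and their auxiliary subunits, in cultured mouse hippocampal neural progenitor cells. They were taken by symbol from the protein-coding genes of the deposited gene table (potassium, calcium, sodium, chloride, TRP, HCN, anoctamin, inositol trisphosphate and ryanodine channels, and glutamate, GABA, purine, acetylcholine and adrenaline receptors), which gave 74 of 9140 genes. Not all of them are channels or receptors. Trpc4ap is named after a TRP channel that it binds, and the chloride group includes exchangers such as Clcn3.

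The cells came from dentate gyrus dissected from late-gestation embryos of C57BL/6J females mated to Kmt2d+/βgeo males. They were held undifferentiated with EGF and FGF2 (day 0) or collected 2, 4 and 8 days after both factors were withdrawn. Libraries labelled Kmt2d+/βgeo carry 1 copy of the gene-trap allele Mll2Gt(RRt024)Byg of the histone methyltransferase gene Kmt2d, and those called wild type here are labelled C57BL/6J and are Kmt2d+/+ littermates per the growth protocol. There was 1 library for each genotype and day, 8 in all with 30408 cells. A culture, an embryo or a genotype cannot be told apart in such a design, no test was run, and intervals below cover counting error only.

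Ion channels set the resting potential of a cell and shape its electrical and calcium signals, and receptors for glutamate and GABA pass signals between cells. Neurons are best known for them, but dividing neural progenitors and glia use many as well: astrocytes hold a strongly negative potential through inward-rectifying and leak potassium channels, and cells of the oligodendrocyte lineage carry AMPA receptors and A-type and delayed-rectifier potassium channels. A receptor is an assembly of subunits, so the subunit mix matters as much as the amount. The AMPA receptor subunit encoded by Gria2, for example, in its edited form keeps calcium from passing.

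The libraries held 2534 to 4900 cells with a median of 7926 to 23219 unique molecular identifiers (UMIs, 1 per captured RNA molecule) per cell. The library labelled Kmt2d+/βgeo day 8 was the shallowest. Pairs of libraries shared 0 to 10 cell barcodes. The 2 day 4 libraries stood apart from the other pairs: none of 7459 genes differed between them by a log2 ratio of 1 (background 0.00% higher and 0.00% lower). The library labelled Kmt2d+/βgeo day 4 was close to the wild type of that day also for the members that differed on other days, such as Kcnd2, Kcnj16, Gria2 and Cacna2d3, and whether its cells were of the labelled genotype could not be checked here. Its values are printed under its label, and the comparisons over time below run from day 0 to days 2 and 8 and leave both day 4 libraries out. Kmt2d itself was at 0.157, 0.197, 0.237 and 0.241 normalised counts per cell in the wild-type libraries and at 0.193, 0.171, 0.295 and 0.290 in those labelled Kmt2d+/βgeo at days 0, 2, 4 and 8. It was thus not lower in 3 of the 4 libraries labelled heterozygous, and it gives no check of the labels. As for cell types, the gene table held 5 of 9 listed progenitor, 3 of 8 neuron, 5 of 8 astrocyte and 1 of 8 oligodendrocyte lineage markers, and none of the microglia, endothelial or mural and fibroblast lists. Summed astrocyte markers went from 10.2 to 243 normalised counts per cell between day 0 and day 8 in the wild type and from 17.3 to 106 in Kmt2d+/βgeo, mostly Apoe. The sum does not stand for each marker: in Kmt2d+/βgeo S100b was at 0.799 and 0.917 at days 0 and 8 and Aldh1l1 at 0.648 and 0.516. Of the progenitor markers, Vim was at 30.3 and 86.6 in the wild type and at 35.4 and 43.7 in Kmt2d+/βgeo at days 0 and 8. Fabp7 was lower at day 8, with log2 ratios of -0.80 and -1.20, and Msi1, Notch1 and Pax6 were higher at day 8 than at day 0 in both genotypes. The oligodendrocyte lineage marker Olig2 went from 8.09 to 0.911 and from 5.53 to 1.48. The summed neuron markers stayed between 2.88 and 4.22, nearly all of it Map2 (2.85 to 4.00). The low neuron markers went up from day 0 to day 8: Rbfox3 from 0.0174 to 0.0472 in the wild type and from 0.00536 to 0.113 in Kmt2d+/βgeo, and Elavl3 from 0.0186 to 0.0357 and from 0.011 to 0.0289.

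The reference sequences just before and after the transcription start are printed for 6 of the genes on which the results turn. They are RefSeq windows of 300 bases on GRCm38.p6, 250 before the start and 50 from it on, 5′ to 3′ on the strand of the gene, with each CG dinucleotide in capitals. Of 7260 genes of the matrix with such a window, 88.3% held at least 10 CG. A window was found for 57 of the 74 genes, under 80%, so no comparison over the set was made. Gabrb1 and Gabra4 are shown as neighbours on opposite strands that were both higher at day 8, Kcnc1 as the gene with the largest drop in level from day 0, and Kcnd2, Kcnj16 and Gria2 as genes that differed between genotypes on 2 or more days.
Gabrb1 (chr5:71657671-71657970, plus strand): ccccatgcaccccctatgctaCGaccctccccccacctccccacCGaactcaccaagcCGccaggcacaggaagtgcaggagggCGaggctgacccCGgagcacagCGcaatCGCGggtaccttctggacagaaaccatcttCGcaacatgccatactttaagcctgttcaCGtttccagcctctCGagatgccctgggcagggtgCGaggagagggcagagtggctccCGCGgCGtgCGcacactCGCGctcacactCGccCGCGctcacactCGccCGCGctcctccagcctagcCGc
Gabra4 (chr5:71658259-71658558, minus strand): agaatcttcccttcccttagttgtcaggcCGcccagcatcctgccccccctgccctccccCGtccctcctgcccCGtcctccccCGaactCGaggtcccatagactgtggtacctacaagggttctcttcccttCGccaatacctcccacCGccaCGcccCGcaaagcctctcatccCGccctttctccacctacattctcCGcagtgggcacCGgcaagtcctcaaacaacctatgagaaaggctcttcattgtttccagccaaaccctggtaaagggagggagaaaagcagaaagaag
Kcnc1 (chr7:46396218-46396517, plus strand): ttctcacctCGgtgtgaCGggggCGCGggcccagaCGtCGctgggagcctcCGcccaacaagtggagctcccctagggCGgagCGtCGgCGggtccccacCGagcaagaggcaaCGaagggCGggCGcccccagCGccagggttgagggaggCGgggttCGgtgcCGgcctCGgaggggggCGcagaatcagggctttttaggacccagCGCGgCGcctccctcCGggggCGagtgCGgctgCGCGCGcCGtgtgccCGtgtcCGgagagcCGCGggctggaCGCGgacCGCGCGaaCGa
Kcnd2 (chr6:21215096-21215395, plus strand): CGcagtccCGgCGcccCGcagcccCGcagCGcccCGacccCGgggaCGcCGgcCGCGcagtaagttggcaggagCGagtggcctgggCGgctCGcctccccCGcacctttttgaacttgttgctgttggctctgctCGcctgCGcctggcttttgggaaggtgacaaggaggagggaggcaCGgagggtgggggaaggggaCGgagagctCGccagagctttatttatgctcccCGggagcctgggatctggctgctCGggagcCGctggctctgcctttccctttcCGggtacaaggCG
Kcnj16 (chr11:110967783-110968082, plus strand): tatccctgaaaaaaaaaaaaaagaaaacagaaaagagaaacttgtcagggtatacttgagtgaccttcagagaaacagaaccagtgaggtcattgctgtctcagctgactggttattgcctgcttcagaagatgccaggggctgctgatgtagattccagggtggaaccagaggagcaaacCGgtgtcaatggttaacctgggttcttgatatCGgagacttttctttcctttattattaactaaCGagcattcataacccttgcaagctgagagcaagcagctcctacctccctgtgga
Gria2 (chr3:80802786-80803085, minus strand): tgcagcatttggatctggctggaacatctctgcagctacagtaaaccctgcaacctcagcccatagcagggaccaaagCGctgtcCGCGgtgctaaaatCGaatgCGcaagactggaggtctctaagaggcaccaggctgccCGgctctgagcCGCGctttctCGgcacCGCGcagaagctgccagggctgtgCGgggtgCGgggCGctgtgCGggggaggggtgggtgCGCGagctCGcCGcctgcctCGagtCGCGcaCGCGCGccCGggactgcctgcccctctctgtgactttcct
The windows held 25, 12, 41, 26, 3 and 26 CG in this order. That of Kcnj16 was the one of the 6 with fewer than 10.

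A level below is the mean normalised count per cell of a library, where each cell sums to 8707 over the 9140 genes. With 3′ tags a molecule gives 1 tag whatever its length, so levels were not divided by length. Other differences between genes in capture or in the assignment of reads were not checked. They bear on any levels of different genes set side by side below. Members were low genes: their median level over the 8 libraries was 0.197 against 0.300 for all genes, and 4 reached 1, namely Gria2, Grm5, Kcnc1 and Clcn3. Together they made up 0.245% to 0.343% of the counts of a library. A level of 0.1 in at least 1 library was reached by 61 members and in all 8 by 33. The other 13 stayed below it throughout: the calcium channel genes Cacna1b, Cacna1d, Cacnb1 and Cacng8, the potassium channel genes Kcnc2 and Kcnn3, the receptors Chrm3, Grik2, Grm4 and P2ry14, and Hcn2, Scn2a and Trpm4. Among them are pore subunits of neuronal sodium and N-type calcium channels, Scn2a and Cacna1b. Member genes were also long, with a median span of 129.8 kb against 34.4 kb.

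**Figure D1:**
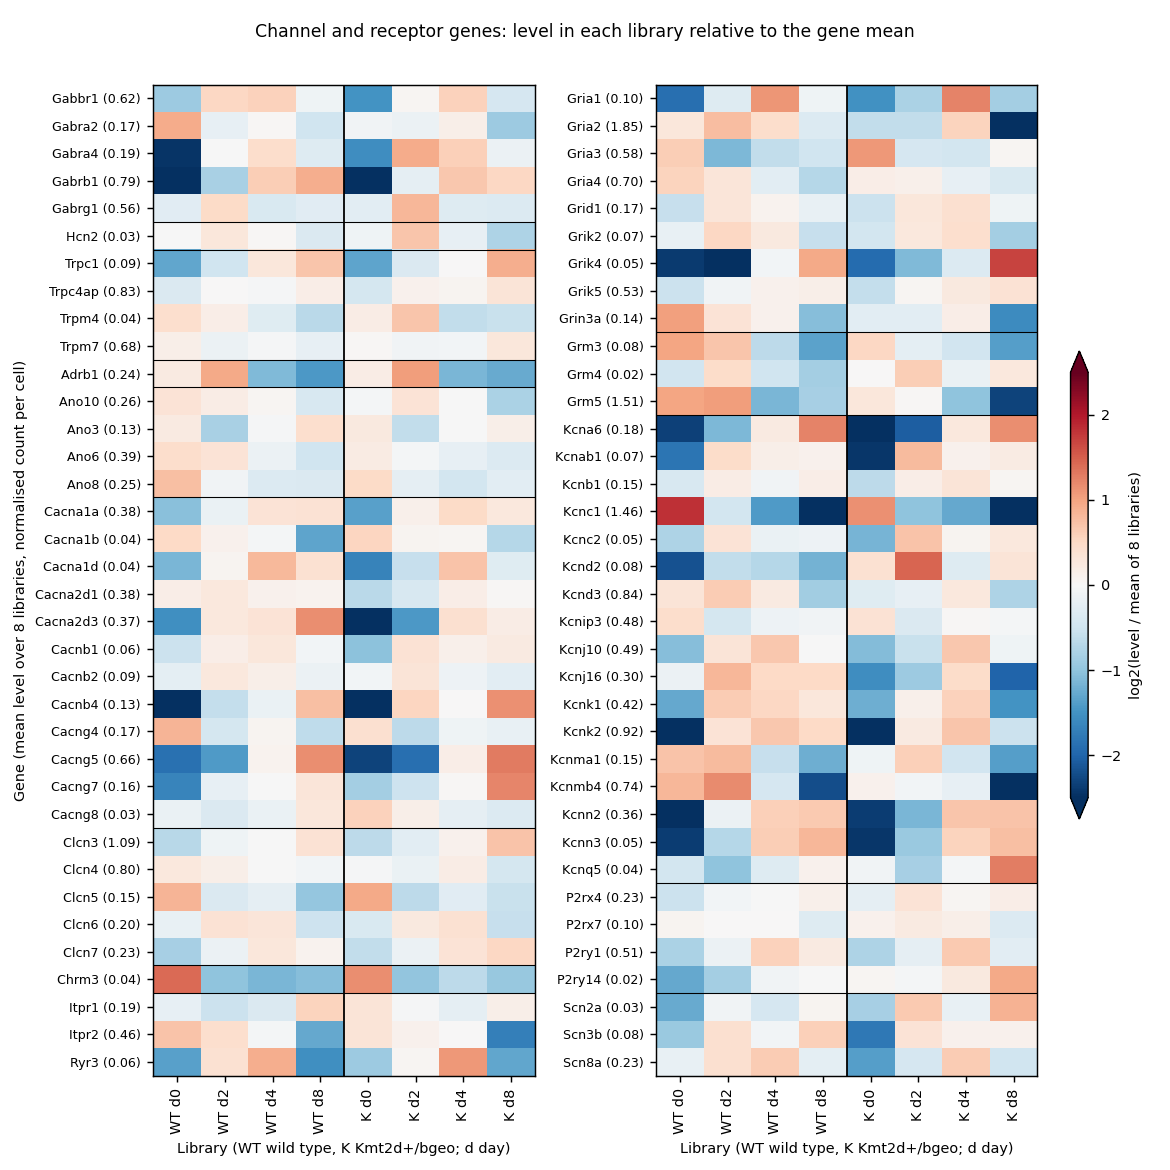
Level of 72 of the 74 genes in the 8 libraries (columns), as log2 of the level over the mean level of the gene; the colour scale ends at 2.5 either way, and the mean level in normalised counts per cell stands beside each symbol. Lines separate gene families and the genotypes. Kcnc1, Grm5 and Kcnmb4 are highest on the left of each block and Cacng5, Kcna6 and Gabrb1 on the right, and the day 4 columns of both genotypes look alike.

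A gene was compared between 2 libraries where its level was at least 0.1 in either, and was counted as past the fold at an absolute log2 ratio of 1 or more. A gene below 0.1 in one library could enter only through the other one, so such genes were prone to large ratios. From day 0 to day 8, 13 members were higher past the fold in both genotypes (background 13.2% of 7572 genes) and 10 were lower (background 8.02%), of 53 compared, which is 24.5% and 18.9%. In the wild type, 17 of 54 were higher (background 16.3%) and 15 lower (background 10.9%). In Kmt2d+/βgeo the counts were 17 of 56 higher (background 19.0%) and 11 lower (background 13.9%). The counts rest on the minimum and the scale. With a minimum level of 0.5, 15 of 23 members compared were past the fold in the wild type and 11 of 18 in Kmt2d+/βgeo. At 0.1 they were 32 of 54 and 28 of 56, so the number fell because fewer genes were compared, and the share did not. The share of all genes at 0.5 is not given. On the scale of mean log2 values the counts were 2 and 2. The median member hardly moved, with log2 ratios of 0.09 in the wild type and 0.10 in Kmt2d+/βgeo against 0.04 and 0.11 for all genes, but members were spread more widely (SD 1.95 and 1.94 against 1.15 and 1.21). The sign was the same in both genotypes for 45 of 53 members (84.9%), close to the 84.3% of all genes.

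Part of this was already present after 2 days. At day 2, 10 of 52 members were higher than at day 0 in the wild type (background 8.08%) and 6 lower (background 5.56%), and in Kmt2d+/βgeo 12 of 54 were higher (background 10.7%) and 4 lower (background 6.74%). Of the 13 members higher at day 8 in both genotypes, 5 were past the fold in both at day 2: Cacna2d3, Gabra4, Gabrb1, Kcnk2 and Kcnn2. Of the 10 that were lower, 3 were: Clcn5, Gria3 and Kcnc1. By contrast, Adrb1, Grm5, Kcnma1 and Kcnmb4 were higher at day 2 than at day 0 in at least 1 genotype before they ended lower.

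Among potassium channels, Kcnc1, which encodes a delayed-rectifier subunit that lets cells repolarise quickly, was the member with the highest level at day 0. Its level was 5.17, 1.07, 0.546 and 0.218 at days 0, 2, 4 and 8 in the wild type and 3.20, 0.729, 0.604 and 0.124 in Kmt2d+/βgeo. It was lower at days 2 and 8 than at day 0 in both genotypes, by 23.7-fold and 25.9-fold at day 8. In summed UMIs the log2 ratio of day 8 to day 0 was -4.59 (95% interval -4.71 to -4.47) and -4.69 (-4.93 to -4.47).

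The subunits of the large-conductance calcium-activated channel went the same way. Kcnmb4, its auxiliary subunit, was at 1.31, 1.68, 0.550 and 0.159 in the wild type and at 0.791, 0.707, 0.636 and 0.0676 in Kmt2d+/βgeo, which is 8.26-fold and 11.7-fold lower at day 8 than at day 0. Kcnma1, which forms the pore, was at 0.237 and 0.0625 in the wild type at days 0 and 8 and at 0.136 and 0.0556 in Kmt2d+/βgeo. The auxiliary subunit was above the pore subunit in the other 7 libraries, while in the Kmt2d+/βgeo day 8 library the pair was close, on 91 and 74 UMIs.

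Other potassium channel genes were higher after growth factor withdrawal. Kcnk2, a tandem-pore leak channel, was at 0.141, 1.16, 1.46 and 1.3 in the wild type and at 0.101, 1.07, 1.49 and 0.632 in Kmt2d+/βgeo, 9.20-fold and 6.28-fold higher at day 8 than at day 0. The small-conductance calcium-activated channel gene Kcnn2 was at 0.0417, 0.329, 0.550 and 0.570 in the wild type and at 0.0696, 0.164, 0.583 and 0.595 in Kmt2d+/βgeo. Kcna6, a voltage-gated subunit, was 12.0-fold higher in the wild type, from 0.0348 to 0.416, and 21.1-fold higher in Kmt2d+/βgeo, from 0.0188 to 0.396. Kcnj10, the inward rectifier of astrocytes, was past the fold in the wild type, from 0.238 to 0.491, and just under it in Kmt2d+/βgeo, from 0.235 to 0.456 (log2 0.96).

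**Figure D2:**
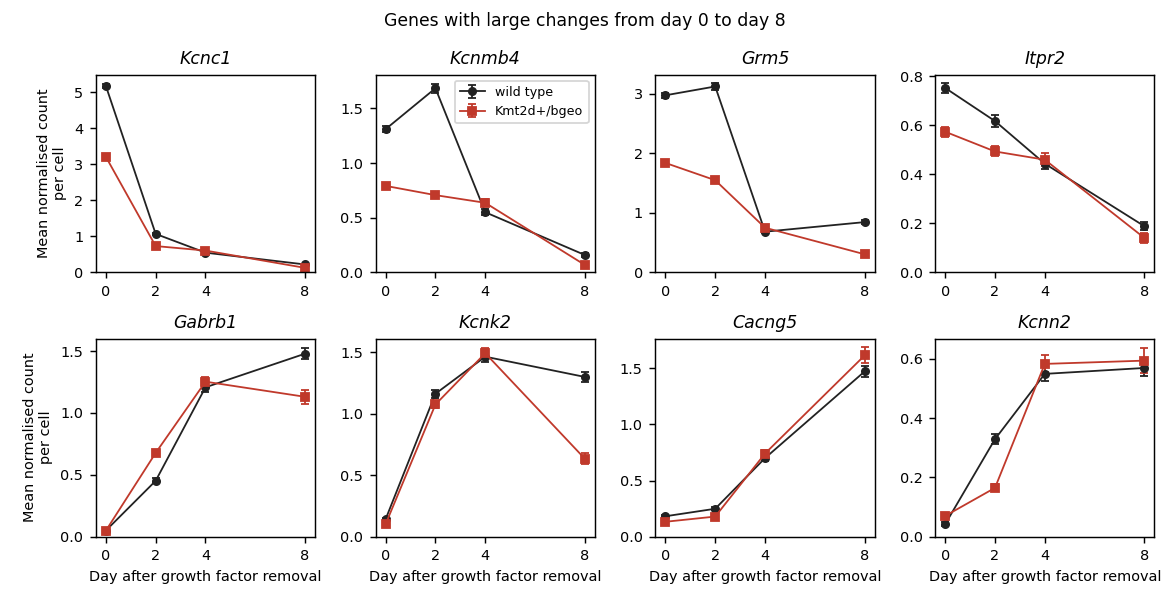
Level (mean normalised count per cell) against day after growth factor removal for 8 genes that were past the fold between day 0 and day 8 in both genotypes, with wild type as black circles and Kmt2d+/bgeo as red squares, 1 library each. Bars are exact Poisson 95% intervals, so counting error only. The upper row holds genes that ended lower and the lower row genes that ended higher; at day 4 the pair of points of each gene nearly coincide.

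For calcium channels, 5 of the 7 members compared in both genotypes were higher at day 8 and none was lower (13.2% and 8.02% of all genes). Cacng5 had the highest level of them by day 8. It encodes one of the proteins that were named as calcium channel gamma subunits and that act on AMPA receptors. It was at 0.181, 0.248, 0.700 and 1.47 in the wild type and at 0.132, 0.178, 0.741 and 1.62 in Kmt2d+/βgeo, 8.15-fold and 12.3-fold higher at day 8. Cacng7, of the same subfamily, was 3.85-fold and 4.15-fold higher. Cacng4, another AMPA receptor partner and a neighbour of Cacng5 on chromosome 11 at a distance of 80.0 kb, had the opposite sign: it was at 0.300 and 0.106 at days 0 and 8 in the wild type and at 0.217 and 0.146 in Kmt2d+/βgeo, with log2 ratios of -1.5 and -0.57.

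The pore subunit of P/Q-type channels, Cacna1a, was 2.64-fold and 3.07-fold higher at day 8. Cacnb4, an intracellular beta subunit, had the largest ratio of all members, 42.7-fold and 37.0-fold, but from levels of 0.00518 and 0.00791 that rested on 33 and 43 UMIs. It ended at 0.221 and 0.292. Cacna2d3, an auxiliary subunit that brings channels to the membrane, was 6.50-fold higher in the wild type, from 0.129 to 0.839, and 9.62-fold higher in Kmt2d+/βgeo, from 0.0442 to 0.425. Of the intracellular calcium release channels, the inositol trisphosphate receptor gene Itpr2, the form typical of astrocytes, was 4.00-fold and 4.09-fold lower at day 8. Itpr1 was at 0.164 and 0.280 in the wild type at days 0 and 8 and at 0.239 and 0.210 in Kmt2d+/βgeo, so that Itpr1 was above Itpr2 at day 8 and below it at day 0 in both genotypes.

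GABA-A receptors, chloride channels opened by GABA, had subunit genes that went in different directions. Gabrb1, a beta subunit, was at 0.0481, 0.451, 1.21 and 1.48 in the wild type and at 0.0472, 0.676, 1.25 and 1.13 in Kmt2d+/βgeo. This was 30.7-fold and 23.9-fold higher at day 8 than at day 0. In the wild-type day 8 library it was close to Cacng5 (1.47) and Gria2 (1.46), the other members at the top, and their order is not read. The alpha subunit Gabra2 was lower at day 8, with log2 ratios of -1.43 and -0.84, and Gabra4 was higher, with 2.13 and 1.41. The gamma subunit Gabrg1 was at 0.460 and 0.457 at days 0 and 8 in the wild type and at 0.464 and 0.442 in Kmt2d+/βgeo. Gabbr1, a subunit of the GABA-B receptor, which acts through G proteins, was 1.75-fold and 2.09-fold higher.

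Gabrg1, Gabra2, Gabra4 and Gabrb1 lie in this order on chromosome 5, and the ratios of day 8 to day 0 along it were -0.01, -1.43, 2.13 and 4.94 (log2) in the wild type and -0.07, -0.84, 1.41 and 4.58 in Kmt2d+/βgeo. The ones at the same end were the ones higher at day 8. In the gene table, Gabra4 (chr5:71569749-71658308, minus strand) and Gabrb1 (chr5:71658113-72149037, plus strand) overlap by 0.195 kb at their 5′ ends, far from the 3′ ends that the tags mark, and the windows printed above lie on it or next to it. With the day 4 libraries left out, Gabra4 was at 0.192 and 0.154 at days 2 and 8 in the wild type and at 0.367 and 0.175 in Kmt2d+/βgeo, lower at the later day in both, while Gabrb1 was higher at the later day in both.

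Of the glutamate receptors no member was higher at day 8 past the fold in both genotypes, and 4 of the 8 compared were lower (13.2% and 8.02% of all genes). With 8 genes, the absence of a higher one says little. Grm5, a metabotropic receptor coupled to phospholipase C, had levels of 2.98, 3.13, 0.684 and 0.845 in the wild type and 1.84, 1.55, 0.751 and 0.304 in Kmt2d+/βgeo. It was 3.52-fold and 6.06-fold lower at day 8 than at day 0. Its level at day 2 was not below that of day 0 in the wild type, so the drop there came after day 2, with or without the day 4 library. Grm3, which inhibits adenylyl cyclase, was 4.98-fold and 3.73-fold lower. The NMDA receptor subunit Grin3a was at 0.291 and 0.0682 in the wild type at days 0 and 8 and at 0.119 and 0.0483 in Kmt2d+/βgeo. Gria3 was lower by 2.15-fold and 2.06-fold. The kainate receptor subunit Grik5 was 1.61-fold and 1.95-fold higher, short of the fold.

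The remaining families held changes in either direction. Clcn3, an endosomal chloride-proton exchanger, was at 0.672 and 1.39 at days 0 and 8 in the wild type and at 0.695 and 1.78 in Kmt2d+/βgeo. Clcn5, a relative, was 3.54-fold and 2.84-fold lower, and Clcn4 was 1.27-fold and 1.31-fold lower. Adrb1, the beta adrenergic receptor, peaked at day 2 in both genotypes, at 0.457 and 0.494, and was at 0.0881 and 0.0988 at day 8. The muscarinic receptor gene Chrm3 was at 0.0982 and 0.0177 at days 0 and 8 in the wild type and at 0.0832 and 0.0192 in Kmt2d+/βgeo, below the minimum level in each, and was not compared. The purine receptor gene P2ry1 was at 0.294, 0.459, 0.761 and 0.592 in the wild type and at 0.298, 0.434, 0.802 and 0.425 in Kmt2d+/βgeo. Trpm7, a channel joined to a kinase, stayed between 0.590 and 0.833 in all 8 libraries. Of the anoctamins, Ano6 was highest, at 0.281 to 0.535, and no anoctamin was past the fold in both genotypes.

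Genes outside the symbol rule that work beside these channels were read from lists chosen for this purpose. The list of scaffold and auxiliary genes also holds channel-forming genes, among them Lrrc8a, Piezo2, Gja1 and Panx1. Of the 31 genes of this list in the matrix, 23 were compared in both genotypes. At day 8, 9 of them were higher than at day 0 and 4 lower, against 13.2% and 8.02% of all genes. Lrrc8a, Piezo2 and Gja1 are among the higher ones and Panx1 among the lower ones, so the counts are not of scaffolds and auxiliary proteins alone. Shisa9, an AMPA receptor auxiliary protein, was higher with log2 ratios of 2.74 and 3.06, and the kainate receptor partners Neto1 and Neto2 were lower, with -2.67 and -2.34 for Neto1 and -1.89 and -1.54 for Neto2. The gap junction gene Gja1, also an astrocyte marker, had ratios of 4.33 and 3.83. Of 9 pumps and cotransporters compared, 3 were higher (13.2% of all genes), among them the calcium pump gene Atp2b4 with 3.16 and 3.13. Of 6 compared genes of transmitter transport and synthesis, 1 was higher, a share near that of all genes, the glutamate transporter gene Slc1a2 with 1.09 and 2.06.

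Between genotypes, members were more often lower than higher in Kmt2d+/βgeo on 3 of the 4 days. At day 0, 1 of 47 members compared was higher past the fold (background 0.674%) and 5 were lower (background 0.871%), that is 10.6% of members. At day 2, 2 of 54 were higher (background 1.68%) and 6 lower (background 1.15%). At day 8, 2 of 52 were higher (background 2.06%) and 6 lower (background 2.81%). At day 4, 0 of 55 were past the fold, with ratios between -0.27 and 0.42. The median member had a log2 ratio of -0.25, -0.13, 0.07 and -0.05 at days 0, 2, 4 and 8, against -0.04, -0.00, 0.04 and 0.01 for all genes. These comparisons use different libraries on each day, and day 4 went against the others: the 14 members past the fold at day 0, 2 or 8 had ratios between -0.03 and 0.39 there. With a minimum level of 0.5 the day 0 count was 0, and on the scale of mean log2 values, which compresses low genes, no member was past 1 on any day. Fewer genes were compared at that minimum, and the share of all genes there is not given.

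**Figure D3:**
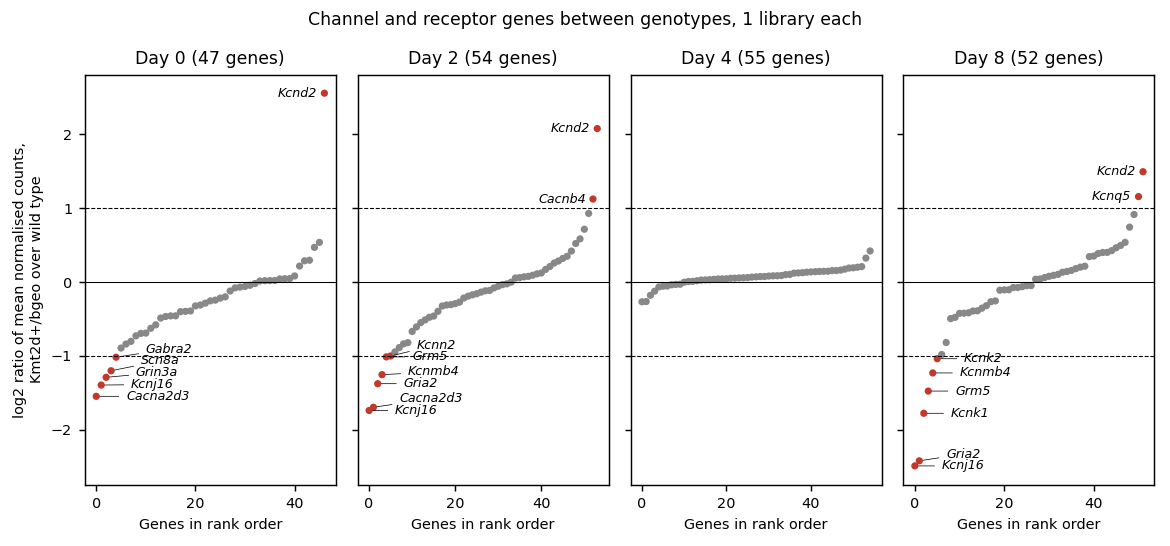
Log2 ratio of mean normalised counts, Kmt2d+/bgeo over wild type, for the members compared on each day (47, 54, 55 and 52), in rank order, with 1 library per group. Dashed lines mark a ratio of 1 either way, and genes past it are red and named. Kcnd2 is the highest point at days 0, 2 and 8, Kcnj16 the lowest at days 2 and 8, and no gene is past the lines at day 4.

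Kcnd2 was the member that was higher past the fold on every day but day 4. It encodes a pore subunit of A-type potassium channels, which open below firing threshold. Its level was 0.0181, 0.0533, 0.0499 and 0.0363 in the wild type and 0.107, 0.225, 0.0656 and 0.102 in Kmt2d+/βgeo, so that the 3 libraries of days 0, 2 and 8 labelled Kmt2d+/βgeo were above all 4 of the wild type. All 4 wild-type levels were under the minimum of 0.1. It was thus compared only through the Kmt2d+/βgeo libraries, which were just over 0.1 at days 0 and 8. At day 4 both levels were under the minimum, so it was not compared. The ratio was 5.89-fold at day 0, 4.22-fold at day 2, 1.31-fold at day 4 and 2.82-fold at day 8. In summed UMIs the log2 ratios were 2.66 (95% interval 2.35 to 3.0), 2.04 (1.82 to 2.28), 0.40 (0.06 to 0.73) and 1.58 (1.18 to 1.99). Kcnd3, its relative and the more abundant of the pair in every library, was lower in Kmt2d+/βgeo at days 0 and 2, with 0.684 against 1.06 and 0.727 against 1.3. Kcnd2 thus gave 12.8%, 22.3%, 5.37% and 16.9% of the UMIs of the pair in Kmt2d+/βgeo, against 1.40%, 3.79%, 4.25% and 6.52% in the wild type.

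Kcnj16 stood at the other end. It encodes an inward rectifier that joins the product of Kcnj10 in astrocyte channels. It was at 0.274, 0.540, 0.431 and 0.429 in the wild type and at 0.104, 0.162, 0.422 and 0.0764 in Kmt2d+/βgeo, which is 2.63-fold, 3.34-fold, 1.02-fold and 5.61-fold lower. The summed log2 ratio at day 8 was -2.38 (95% interval -2.67 to -2.10) on 115 and 1163 UMIs. Kcnj10 was at 0.238 and 0.235 at day 0 and at 0.491 and 0.456 at day 8, with wild type first, so it was close between genotypes on both days. At day 2 it was at 0.622 and 0.336.

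Gria2 was lower in Kmt2d+/βgeo at days 2 and 8 past the fold, and at day 0 short of it. Its level was 2.25, 3.14, 2.52 and 1.46 in the wild type and 1.21, 1.21, 2.70 and 0.273 in Kmt2d+/βgeo, a ratio of 1.86-fold, 2.59-fold and 5.35-fold lower at days 0, 2 and 8. Its share of AMPA subunit UMIs was 54.4%, 71.5%, 67.7% and 61.0% in the wild type and 37.6%, 47.8%, 67.6% and 18.4% in Kmt2d+/βgeo, with a 95% interval of 16.6% to 20.2% for the last. Gria3 had the opposite sign, at 0.897 against 1.24 on day 0, 0.268 against 0.440 on day 2 and 0.416 against 0.604 on day 8, with ratios of 1.39-fold, 1.64-fold and 1.45-fold that were short of the fold. The AMPA subunit genes as a sum were at 2.39 and 1.47 at day 8.

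**Figure D4:**
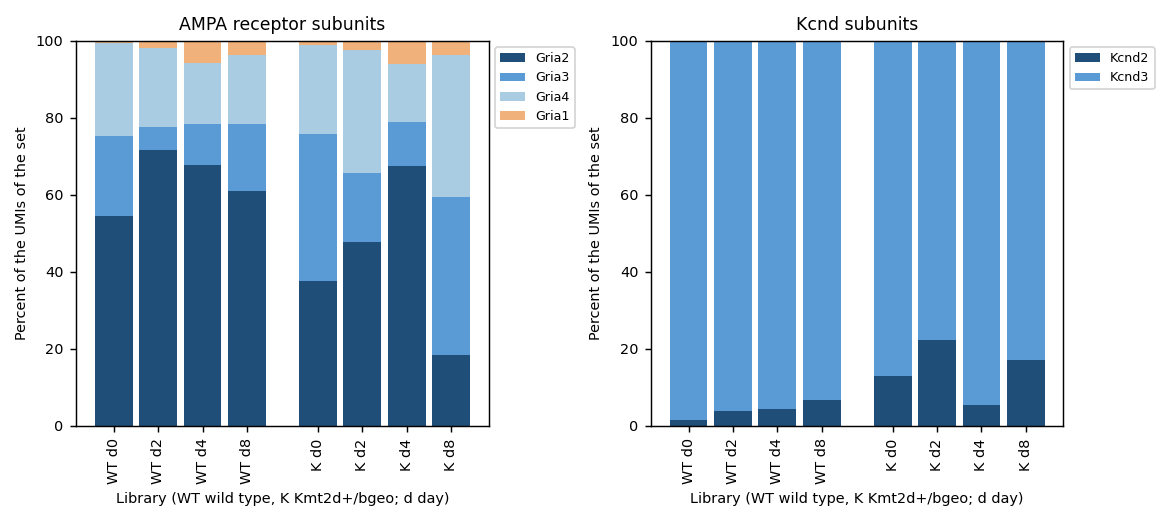
Share (percent) of the UMIs of 4 AMPA receptor subunit genes and of the pair Kcnd2 and Kcnd3 in each of the 8 libraries, as stacked bars that add up to 100. Gria2 makes up 18.4% of AMPA subunit UMIs in the Kmt2d+/bgeo day 8 library against 61.0% in the wild type, and Kcnd2 has a larger share of its pair in the Kmt2d+/bgeo libraries of days 0, 2 and 8 than in any wild-type library.

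Grm5 was 2.02-fold lower in Kmt2d+/βgeo at day 2 and 2.78-fold lower at day 8, and Kcnmb4 was 2.38-fold and 2.35-fold lower. Both were 1.62-fold to 1.66-fold lower at day 0. Cacna2d3 was 2.92-fold lower at day 0 and 3.24-fold lower at day 2, and lay next to the threshold at day 8 with 0.839 against 0.425 (log2 -0.98). Members past the fold on a single day were Gabra2, Grin3a and Scn8a at day 0, Kcnn2 and, as the higher one, Cacnb4 at day 2, and Kcnk1, Kcnk2 and, as the higher one, Kcnq5 at day 8. Scn8a, a sodium channel pore subunit, was at 0.205 and 0.0894 at day 0. Kcnk1, a leak channel, was at 0.175, 0.661, 0.610 and 0.519 in the wild type and at 0.181, 0.464, 0.628 and 0.151 in Kmt2d+/βgeo. Kcnq5 was at 0.045 and 0.10, just at the minimum level, on 116 and 142 UMIs.

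The libraries of the 2 genotypes also differed in marker levels. At day 0 the log2 ratio of Kmt2d+/βgeo to wild type was 1.26 for Apoe, -0.75 for Sox9 and -0.55 for Olig2. It was 0.47 for S100b, -0.38 for Aldh1l1 and -0.07 for Gja1. At day 2 it was -1.26 for Gja1, -0.91 for S100b, -0.68 for Aldh1l1, -0.56 for Sox9 and 0.49 for Apoe, beside the lower values of Kcnj16, Gria2, Grm5, Kcnmb4 and Cacna2d3. The ratio on that day was 0.70 for Vim and -0.42 for Olig2. At day 8 depth differed as well. Summed astrocyte markers were at 243 in the wild type and 106 in Kmt2d+/βgeo, again nearly all Apoe (230 and 94.7). Of the 5 markers, 4 were lower in Kmt2d+/βgeo: Apoe, Gja1 (3.41 and 2.31), S100b (1.62 and 0.917) and Aldh1l1 (0.991 and 0.516). The fifth, Sox9, was at 6.91 and 7.16. Beyond astrocyte markers, the log2 ratio at day 8 was 0.70 for Olig2, 0.83 for Msi1 and -0.99 for Vim. For the low neuron markers it was 1.26 for Rbfox3 and -0.30 for Elavl3. At day 8 Olig2 was detected in 22.5% of thinned cells in Kmt2d+/βgeo against 14.2% in the wild type. At day 0 the shares were 70.8% in Kmt2d+/βgeo and 85.2% in the wild type. In means over a library, fewer cells of a type and less RNA per cell cannot be told apart. Depth could be evened out by drawing each cell down to 3000 UMIs, which left out 765 cells of the shallow library. The thinned ratios at day 8 were -2.70 for Gria2, -2.19 for Kcnj16, -1.77 for Kcnk1, -1.56 for Grm5, -1.40 for Kcnmb4, 1.71 for Kcnd2 and 1.24 for Kcnq5, all still past the fold, and -0.95 for Kcnk2, which was not. The part of cell content in the ratios of any day was not tested.

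Within libraries, members were compared between cells with and without a UMI of a marker after the same thinning, and counted where past the fold with 1 sign in both genotypes. At day 0, cells with Top2a, a gene of dividing cells, were 1652 and 1625 in the wild type and Kmt2d+/βgeo, and 0 of 64 members were higher in them (background 1.79%) or lower (background 0.0810%). For Olig2 at day 0, in 4137 and 3051 cells, 0 of 64 were higher (background 0.0116%) or lower (background 0.0347%). For Rbfox3 at day 8, which was seen in 51 and 65 cells, 1 of 63 was higher (background 0.471%) and 3 were lower (background 2.75%), but each of the 4 rested on 5 UMIs or fewer in the cells with Rbfox3 and is not read further. Splitting day 8 cells at the median Apoe count gave 0 of 63 higher (background 0.00%) and 1 lower (background 0.0942%), Cacng4.

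Cells that still had Olig2 at day 8, 457 and 496, were higher in 2 of 63 members (background 0.330%) and lower in 0 (background 0.106%). Members past the fold in 1 genotype alone are not in this count. Besides Kcnd2, these members were past the fold between genotypes on 2 or more days or next to it. Gria2 had log2 ratios of 0.89 in the wild type and 1.68 in Kmt2d+/βgeo. Kcnmb4 had 0.93 and 1.22, Grm5 0.16 and 1.29, Kcnj16 -0.31 and 0.53, and Cacna2d3 -0.14 and 0.07. A cell counts here by 1 Olig2 UMI, which free RNA can also give, and no background from empty droplets or from cells that lack these genes was measured, so the split is by detected Olig2 and not by lineage. Cacng4 gave 164 UMIs per 1000 cells in those with Olig2 and 17.1 in those without in the wild type, and 80.6 and 15.8 in Kmt2d+/βgeo, with log2 ratios of 3.26 (95% interval 2.72 to 3.82) and 2.35 (1.61 to 3.11). Kcnd2 gave 61.3 and 1.82 UMIs per 1000 cells in the wild type, a log2 ratio of 5.08 (3.68 to 6.80), and 56.5 and 27 in Kmt2d+/βgeo, a log2 ratio of 1.06 (0.33 to 1.77). These rest on 28 and 5 UMIs in the wild type and 28 and 46 in Kmt2d+/βgeo, and the genotypes are not compared within the split. With cells thinned to 5000 UMIs, which kept 670 cells of the shallow Kmt2d+/βgeo library, neither gene was counted: the log2 ratios of Kcnd2 were 4.80 and 0.90, and those of Cacng4 were 2.5 in the wild type and -0.29 in Kmt2d+/βgeo, the latter on 26 UMIs. The sign of the Cacng4 ratio in Kmt2d+/βgeo was thus not the same in the deeper cells, on few UMIs. With Apoe, Cacng4 went the other way: 15.5 UMIs per 1000 cells above the median and 59.1 at or below it in the wild type, and 14.0 and 46.2 in Kmt2d+/βgeo. This call too was lost with cells thinned to 5000 UMIs and with at least 100 thinned UMIs required. Both settings took Cacng4 out of the comparison for too few UMIs in Kmt2d+/βgeo, 26 of them at 5000. The minimum of 100 leaves its ratios as they are, and its ratio by Apoe at 5000 is not given.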

How the data were processed

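Droplet 3′ single-cell libraries were made from 8 cultured samples, 1 per genotype and day, so no test between groups was run. Per the labels and the study's methods, the authors quantified spliced and unspliced molecules with alevin (Salmon 1.3.0) against GRCm38, took the spliced estimated counts, removed outlier cells and likely doublets, left out genes seen in few cells, divided by a library size factor and deposited log2(normalised count + 1) for 9140 genes and 30408 cells. Total UMIs per cell are the authors' deposited estimated counts over more genes than the matrix holds. The median cell of the wild-type day 0 library had 20434 in total and 9402 in the matrix. For Kmt2d+/βgeo day 8 these were 7926 and 3972. A gene absent from the matrix is therefore not read as one that was not expressed. The study's methods also integrate samples with Seurat 3.2.2. No source used here says whether the deposited values precede that step. Most, not all, went back to whole UMIs, as below.

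The log2 values were turned back to normalised counts, and the commonest value of a cell was taken as 1 UMI, which made 86.8% of nonzero values whole within 0.01. Counts were rounded for sums and for thinning. Ratios of summed UMIs have exact conditional 95% intervals and shares exact Clopper-Pearson ones. A gene was compared at a level of at least 0.1 in either library, and in cell splits at 30 or more thinned UMIs over both sides. The ratio of summed UMIs and its intervals were tried on simulated Poisson counts of whole libraries. No spread between cells or cultures was simulated, and the ratio of mean normalised counts was not tried. Python 3.11.15 with numpy 2.4.6, pandas 2.3.3, scipy 1.17.1 and matplotlib 3.10.9 was used. Members, lists and comparisons were chosen with earlier results of these data known. Named were members past the fold with 1 sign at 2 or more of days 0, 2 and 8 between genotypes, the 5 highest and 5 lowest ratios of day 8 to day 0, the 10 highest levels, the top 2 of each family, the 5 largest each way in a cell split and the 3 highest and lowest genotype ratios of a day. Others were named after their values were seen. Values of 2 members are not reported here.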

Additional observations from a re-analysis of the deposited data

Results flagged for a closer look

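No group had more than 1 library, so no library could be compared with others of its group. The genes below had opposite signs in 2 comparisons that differed by a log2 ratio of more than 1, and none of these differences was tested. Where 1 of the values is as small as 0.04 or 0.06, its sign is not read. From day 0 to day 8, Kcnk1 had a log2 ratio of 1.56 in the wild type and -0.26 in Kmt2d+/βgeo, a difference of -1.82, and Kcnj16 had 0.64 and -0.45, a difference of -1.09. Between genotypes, Kcnk1 had 0.04 at day 0 and -1.78 at day 8, which is the same difference of -1.82 since it is made from the same 4 libraries. Gabra2 had -1.02 at day 0 and 0.06 at day 2, a difference of 1.08. Cacng7 had -0.31 at day 2 and 0.92 at day 8, a difference of 1.22, and Kcnn2 had -1.0 and 0.06 on these days, a difference of 1.06.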

How the results depend on the processing

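No paired analysis was possible because each group has 1 library. With a minimum level of 0.5 in place of 0.1, the number of members past the fold between genotypes was 0 at day 0 (6 as reported), 4 at day 2 (8) and 4 at day 8 (8), and from day 0 it was 6 at day 2 and 15 at day 8 in the wild type (16 and 32) and 6 and 11 in Kmt2d+/βgeo (16 and 28), since fewer genes were compared. With no minimum, the wild-type count at day 2 was 27. The shares of all genes under these other settings are not given. The difference of mean log2 values, a scale that compresses low genes, gave 0 at days 0, 2 and 8 between genotypes, and 1 and 2 members at days 2 and 8 in either genotype. With cells thinned to 5000 UMIs, members past the fold were 1 for Top2a, 1 for Olig2 at day 0, 0 for Olig2 at day 8, 1 for Rbfox3 and 0 for Apoe. With at least 100 thinned UMIs they were 0 for Olig2 at day 8, 2 for Rbfox3 and 0 for Apoe, where the minimum leaves ratios as they are and takes genes out of the comparison. The shares of all genes in the splits at these 2 settings are not given either. At 5000 UMIs the ratio of Cacng4 by Olig2 at day 8 was -0.29 in Kmt2d+/βgeo on 26 UMIs, under the minimum of 30, and that of Kcnd2 was 0.90, just under the fold. Of 303 ratios of named members, 266 kept their value within counting error with summed UMIs, 250 after thinning to 3000 UMIs, 67 on the mean log2 scale and 303 when the 5% of cells deepest in UMIs were left out, and none changed sign past the fold.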
